A study of Mus musculus with 31 samples.

Results

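Circulating monocytes of mice carrying a subcutaneous Lewis lung carcinoma (LLC, a lung tumor line grown in mice by transplantation) were compared by RNA-seq with circulating monocytes of healthy mice, 3 libraries a side. The comparison was defined by the labels alone: it takes the 3 libraries from blood of healthy mice (named healthy blood 1 to 3) and the 3 from blood of mice with an LLC tumor (LLC blood 1 to 3). These are 6 of the 9 RNA-seq libraries and 6 of the 31 samples of the series; the 3 RNA-seq libraries of monocytes from LLC tumors entered the fit to estimate the spread between libraries, and the other assays were not analysed here. All mice were C57BL/6J, and in both groups the cells were sorted as CD11b+, Ly6G-, Ly6C-high and MHC-II-. The labels of these libraries give no age, no number of mice in a library and no batch. Nothing in them says that the 3 libraries of a group came from separate mice, so the p-values measure the spread between these libraries, which may be technical, and the tumor cannot be told apart from any batch running along with the groups. RNA was extracted with TRIzol, made into TruSeq libraries and sequenced on a HiScanSQ. The letters BM in the column heads were taken to mean blood monocyte, blood being the source in the titles. The question of the comparison is what had already changed in monocytes before they entered the tumor.

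Ly6C-high monocytes are the classical, inflammatory monocytes of the mouse. They are made in the bone marrow from granulocyte-monocyte progenitors, are released through the chemokine receptor CCR2, and either enter tissue, where they become macrophages or dendritic cell-like cells, or turn into Ly6C-low patrolling monocytes in the circulation. Colony-stimulating factors and cytokines of the IL-6 family raise their output, and tumors are known to draw on this supply.

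Of 24411 entries in the count table, 18544 had a count and 12337 were abundant enough to test. Calls were made at an adjusted p under 0.05 (edgeR quasi-likelihood test, Benjamini-Hochberg over all 12337 genes). Between the blood groups 2917 genes (23.6%) were called, 1732 higher (14.0%) and 1185 lower (9.61%) in LLC blood. A change of at least 2-fold was reached by 769 of them (6.23% of the tested genes), 400 upward (3.24%) and 369 downward (2.99%). The median log2 fold change of all tested genes was -0.0092, with quartiles of -0.26 and 0.28. Scaling moved the balance of directions, with 59.4% of calls higher as fitted and 46.3% with upper-quartile factors. Library totals were 13992712 to 16310639 counts in healthy blood and 10457492 to 20706412 in LLC blood. All levels below are counts scaled to the library's total count (CPM), which are not corrected for gene length, and are given in the order of libraries 1, 2 and 3. All 3 LLC blood libraries lay above all 3 healthy ones in 27.5% of the tested genes and below them in 23.8%. Where groups are said not to overlap below, these shares apply. For the genes named as the largest changes, no overlap was a condition of the choice. LLC blood 1, the shallowest library, lay nearest to the healthy mean in 1979 of the 2917 called genes, and in 326 of the 400 that were at least 2-fold higher. Single libraries decided many calls. Leaving out LLC blood 2 left 1494 called genes and leaving out LLC tumor 1 gave 5064. Where the counts of a list are said to range, the fits that left out 1 library each are meant, with the libraries that gave the low and the high end (the first where several tie) in brackets.

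The groups differed in a feature of the libraries that touches every gene group below. Long genes were more often higher and short genes more often lower in LLC blood (gene span, the distance from start to end with introns, from RefSeq on GRCm38.p6, known for 99.5% of the tested genes). In the 10% of genes with the shortest span the median log2 fold change (log2 change for short below) was -0.23, with 2.93% of genes called higher and 19.4% lower. In the 10% with the longest span it was 0.22, with 30.1% called higher and 5.29% lower. Each healthy library lay 0.11 to 0.12 above the mean of the 6 libraries in the shortest 10%, each LLC blood library 0.05 to 0.15 below it, and no library was further than 0.06 from its own group. The trend thus separated the groups completely, and a property of the libraries and a property of the cells cannot be told apart. Every result was therefore also computed with this trend removed (an alternative chosen after the data were seen), which called 2434 genes, 1191 higher and 1243 lower; of the 2917 genes, 1962 were called again in the same direction. In addition, 4 entries switched between listed at 0 and well counted. Pira1 went from 59.6, 62.4 and 77.6 CPM to 0 in all LLC blood libraries, while its paralog Pira7 went from 0 to 53, 52 and 60.2 CPM, Tgoln2 from 0 to 24, 33.3 and 25.5 CPM and Gm10052 from 0 to 10.6, 40.4 and 38.4 CPM. Pira1 was thus at least 312-fold lower and Pira7 at least 284-fold higher against a floor of 3 counts per library, in paralogs whose reads the counting could split. Among the genes named below, the counts of Arg2, Ccr2, Cd300lf, Clec4b1, Csf2rb, Csf2rb2, Ifitm1, Jak3, Ly6c2, Mmp19, Rps27, Slc7a11, Zeb2, the Gbp and H2-Q genes, H2-K1, Ifi205, Ifit3, Tgtp2 and Gvin1 were not whole numbers in any of the 9 libraries, as counts shared with other genes are, and are less certain.

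**Figure D1:**
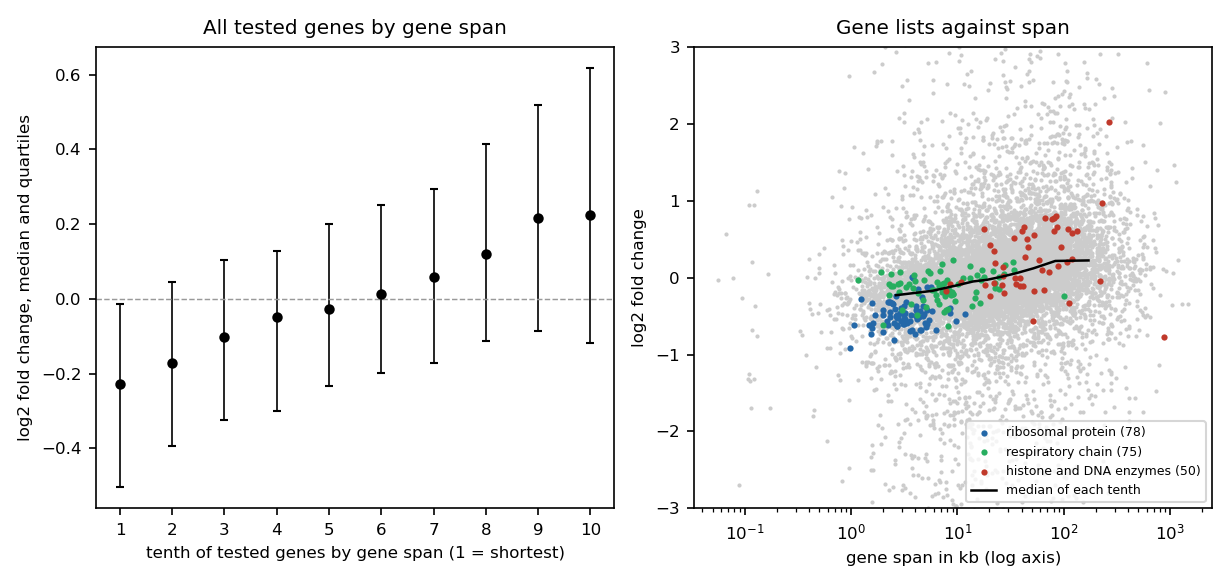
Log2 fold change of LLC blood over healthy blood against gene span. Left, median (points) and quartiles (bars) of the tested genes in 10 equal bins of span; right, single genes against span in kb on a log axis, with ribosomal protein, respiratory chain and histone or DNA modifying enzyme genes coloured, and genes beyond 3 in either direction not drawn. The median goes from -0.23 in the shortest bin to 0.22 in the longest.

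Reads of lymphoid cells were present in the healthy libraries and lower in LLC blood. Of 98 markers of NK, T and B cells and of the lymphoid GIMAP GTPases, 69 were tested, 60 were called lower and 2 higher, with a median log2 fold change of -2.83. They made up 60 of the 369 genes that were at least 2-fold lower; without them 309 such genes remained. The T cell list summed to 135, 325 and 498 CPM for healthy blood and 54.0, 46.9 and 54.6 CPM in LLC blood. Healthy blood 1 thus held the fewest T cell reads of its group and still held more than any LLC library. Cd3e, a chain of the T cell receptor complex, was at 2.93, 7.74 and 13.2 CPM in healthy blood and 0.0956, 0.0692 and 0.241 CPM in LLC blood (log2 change -5.68 ± 0.79 SE, adjusted p 0.00135). The NK list without its 2 members called higher, Cd244 and Sh2d1b1, summed to 422, 593 and 880 CPM for healthy blood and 85.5, 125 and 139 CPM in LLC blood, and with them to 597, 782 and 1036 CPM against 423, 521 and 534 CPM. Gzma, a cytotoxic granule protease of NK cells, fell from 86.3, 138 and 226 CPM in healthy blood to 10.8, 16 and 20.3 CPM in LLC blood (log2 change -3.26 ± 0.37 SE, adjusted p 0.000459). The B cell list stood at 361 CPM in healthy blood 2 and at 48.9 to 63.7 CPM in the other 5 blood libraries. Cd79b, the B cell receptor signalling chain, had 15.5, 49.7 and 19.1 CPM in healthy blood and 13.3, 9.34 and 10.3 CPM in LLC blood and stood out in healthy blood 2. It was called lower (-1.39 on the log2 scale), but not on leaving out LLC blood 2 or 3 (log2 change -1.35 to -1.28) or with the span trend removed (log2 change -1.19, adjusted p 0.0571). The GIMAP list summed to 59.96, 163 and 182 CPM for healthy blood and 9.28, 11.4 and 16.3 CPM in LLC blood, and its 8 members were all called lower.

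Among markers of other blood cells, the summed neutrophil, erythroid and platelet lists overlapped between the groups and the basophil and dendritic cell lists did not. The neutrophil list summed to 1039 to 1293 CPM for healthy blood and 1079 to 1468 CPM for LLC blood, and the erythroid list to 236 to 669 and 182 to 946 CPM. Most of the neutrophil sum came from Csf3r, Cd177 and Mmp8, whose values are given below. The neutrophil median rested on single libraries: it was 0.05 over 18 tested members (2 called higher and 2 lower), 1.45 on leaving out healthy blood 2 (5 higher) and -0.34 on leaving out LLC blood 2, and the 6 blood libraries alone called 5 higher and 2 lower. The platelet list summed to 119 to 147 CPM for healthy blood and 120 to 215 CPM for LLC blood. Basophil, eosinophil and mast cell genes summed to 4.36, 10.8 and 4.17 CPM for healthy blood and to 2.87, 3.39 and 2.99 CPM for LLC blood, with Fcer1a, Epx and Prg2 at 0 in all of them. The dendritic and plasmacytoid cell list summed to 335 to 370 CPM for healthy blood and 196 to 241 CPM for LLC blood, with no overlap. That list holds Bst2, Cd209a, Batf3 and Flt3, which are also given as results below, and the T cell gene Cd8a. Its fall is therefore not separate from theirs. In bulk libraries, fewer cells of a type and less RNA per cell cannot be told apart. Beside the gene groups below, the marker sums that move with them are given, and their part in those results was not tested.

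**Figure D2:**
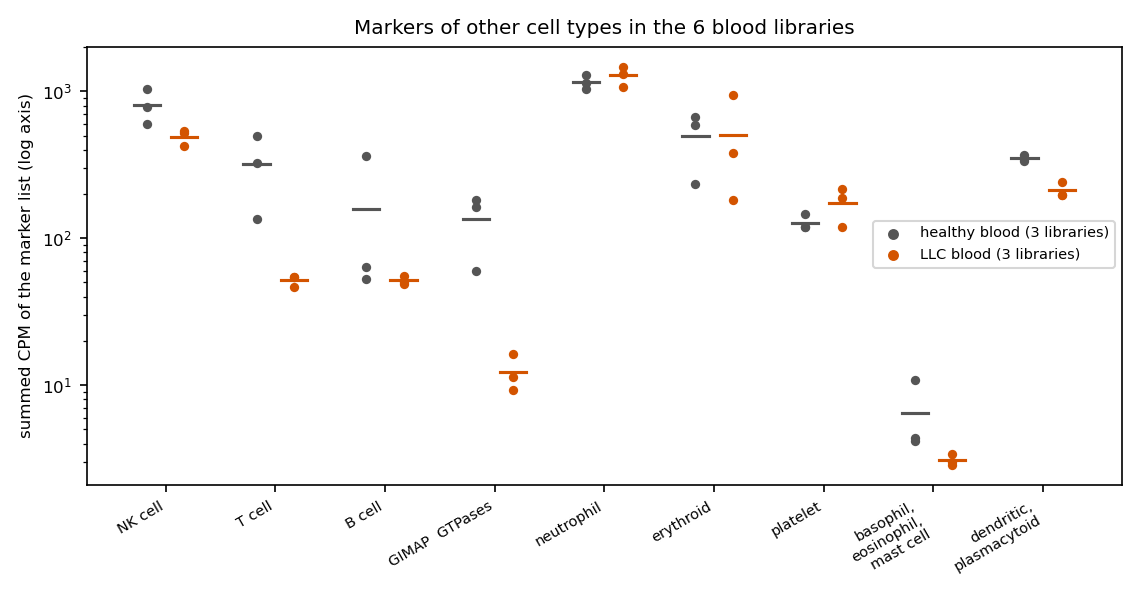
Summed CPM (log axis) of the marker genes of 9 other cell types in each blood library, healthy blood and LLC blood side by side. The T cell sums are 135 to 498 CPM for healthy blood and 46.9 to 54.6 CPM for LLC blood, the B cell sum stands out in healthy blood 2 only, and the neutrophil and erythroid sums overlap.

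Transcripts of the sorting markers were detected in both groups. Ly6c2, which encodes the Ly6C antigen used for the sort, was at 1571, 1709 and 1728 CPM in healthy blood and 1237, 1099 and 1121 CPM in LLC blood and was not called (-0.56 on the log2 scale, adjusted p 0.123), although its LLC values lay below the healthy range. Itgam, the CD11b chain, rose from 949, 922 and 893 to 1337, 1490.0 and 1490.5 CPM (log2 change 0.62 ± 0.15 SE, adjusted p 0.0154), and the groups did not overlap. Its call ended with the span trend removed (log2 change 0.42, adjusted p 0.0819) and on leaving out healthy blood 2 or 3 or LLC blood 2 or 3 (log2 change 0.56 to 0.60). Ccr2, the chemokine receptor that takes these cells out of the marrow, was not called (0.20 on the log2 scale, overlapping groups), nor was Csf1r, the receptor of the monocyte survival factor CSF1 (-0.07). Ly6g was not used here. Of 22 tested genes that mark classical monocytes, 5 were called higher and 2 lower (31.8% in all, against 23.6% of all tested genes). Classical monocyte counts ranged over 3 to 6 higher (healthy blood 1, LLC tumor 1) and 0 to 9 lower (healthy blood 1, LLC tumor 1). F10, coagulation factor X, was at 164, 163 and 156 CPM in healthy blood and 323, 394 and 394 CPM in LLC blood (log2 change 1.18 ± 0.17 SE, adjusted p 0.00178). Gda, guanine deaminase, rose from 483, 639 and 542 CPM in healthy blood to 838, 1117 and 1114 CPM in LLC blood (log2 change 0.86 ± 0.15 SE, adjusted p 0.00424). Both were higher in every LLC library than in any healthy one. Vcan, versican, was the most changed of the list and is given with the matrix genes.

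Among genes of the fates that blood monocytes can take, more were called lower than higher. Of 22 genes of nonclassical patrolling monocytes, 7 were called lower and 2 higher (40.9% in all, against 23.6% of all tested genes), with a median of -0.46. The number lower was 2 (LLC blood 3 left out) to 11 (LLC tumor 1 left out). Of 15 genes of dendritic cell-like monocytes, 7 were lower and 1 higher (53.3% in all), with a median of -0.54. The lower sums of dendritic cell markers given above include Cd209a and Batf3 and are not separate from the values here. The dendritic cell-like list also holds Ccr7, which T cells carry (-3.89 on the log2 scale). It shares Cd74 and Ifi30 with the MHC class II list given below. The part of T and B cell reads in this list was not tested. Dendritic cell-like counts ranged over 0 to 2 higher (healthy blood 3, healthy blood 2) and 4 to 9 lower (LLC blood 2, LLC tumor 1). Cd209a, a C-type lectin of monocyte-derived dendritic cells, was at 35.2, 27.8 and 41.1 CPM in healthy blood and 7.08, 1.73 and 3.09 CPM in LLC blood (log2 change -3.21 ± 0.43 SE, adjusted p 0.00116). It lay below 8 CPM in every LLC library and above 27 CPM in every healthy one. Batf3, a transcription factor of dendritic cells, fell from 20.9, 18.8 and 22.1 CPM in healthy blood to 13.1, 8.78 and 9.18 CPM in LLC blood (log2 change -1.03 ± 0.17 SE, adjusted p 0.00338). Cd74, the invariant chain that escorts MHC class II, was at 764, 1073 and 844 CPM in healthy blood and 453, 313 and 413 CPM in LLC blood (log2 change -1.21 ± 0.26 SE, adjusted p 0.0102). Cd36, a scavenger receptor for oxidised lipid that patrolling monocytes carry, fell from 38.4, 40.9 and 48.7 CPM in healthy blood to 9.28, 6.36 and 7.0 CPM in LLC blood (log2 change -2.54 ± 0.28 SE, adjusted p 0.000413), again with no overlap. S1pr5, the sphingosine phosphate receptor for marrow exit of patrolling monocytes, which NK cells carry too, was at 83.3, 82.3 and 87.1 CPM in healthy blood and 49.9, 24.9 and 29.7 CPM in LLC blood (log2 change -1.31 ± 0.22 SE, adjusted p 0.00343). The NK sums given above were lower in LLC blood too, and their part in the S1pr5 values was not tested. Cebpb, a transcription factor needed by patrolling monocytes, was among the genes called lower (log2 change -0.52 ± 0.10 SE, adjusted p 0.00612). Nr4a1 is the factor those cells depend on for their formation; its log2 fold change was -0.37 (adjusted p 0.309).

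Most of the called granule protein genes of the neutrophil lineage were higher in LLC blood. These proteins are made in progenitors at successive stages and packed into primary, secondary and tertiary granules. Of 12 tested primary granule genes, 7 were called higher and 0 lower, with a median of 0.62; 4 (LLC blood 2 left out) to 8 (LLC tumor 1 left out) were higher when 1 library was left out, and 14.0% of all tested genes were. Of 22 secondary and tertiary granule genes, 9 were higher and 3 lower (54.5% in all, against 23.6% of all tested genes), with a median of 0.48. Secondary and tertiary granule counts ranged over 6 to 10 higher (healthy blood 1, LLC blood 1) and 0 to 4 lower (healthy blood 1, LLC tumor 1). Prtn3 (ENSMUSG00000057729), proteinase 3, rose from 7.15, 12.1 and 7.17 CPM in healthy blood to 29.7, 56.9 and 46.7 CPM in LLC blood (log2 change 2.31 ± 0.31 SE, adjusted p 0.00112). Elane (ENSMUSG00000020125), neutrophil elastase, was at 0.429, 0.553 and 0.368 CPM in healthy blood and 3.35, 8.51 and 5.12 CPM in LLC blood (log2 change 3.60 ± 0.62 SE, adjusted p 0.00363). Both proteases were higher in each LLC library than in any healthy one, with LLC blood 1 the lowest of its group. Fcnb (ENSMUSG00000026835), the lectin ficolin B, rose from 3.5, 3.62 and 3.74 CPM in healthy blood to 11.7, 20.7 and 16.8 CPM in LLC blood (log2 change 2.15 ± 0.28 SE, adjusted p 0.000974). The iron-binding lipocalin Lcn2 (ENSMUSG00000026822) was at 4.86, 9.52 and 3.25 CPM in healthy blood and 37.7, 90.2 and 70.8 CPM in LLC blood (log2 change 3.46 ± 0.47 SE, adjusted p 0.00123). Wfdc21, a gene with a whey acidic protein domain, rose from 0.357, 1.41 and 0.0613 CPM in healthy blood to 5.93, 31.5 and 26.3 CPM in LLC blood (log2 change 5.06 ± 0.88 SE, adjusted p 0.00377). The collagenase Mmp8 (ENSMUSG00000005800) was at 171, 180.2 and 167 CPM in healthy blood and 231, 313 and 303 CPM in LLC blood (log2 change 0.68 ± 0.11 SE, adjusted p 0.00317). Again no value of one group lay within the other, and Mmp8 was well counted already in healthy blood. Lrg1 (ENSMUSG00000037095), a leucine-rich glycoprotein of granules and of the acute phase, had the largest increase among genes averaging at least 50 CPM, 1.0, 6.76 and 0.49 CPM in healthy blood and 34.5, 156 and 109.6 CPM in LLC blood (log2 change 5.13 ± 0.88 SE, adjusted p 0.00359). Healthy blood 2 held several times the Lrg1 level of the other healthy libraries, and LLC blood 1 held the least of its group. S100a8, a calgranulin of neutrophils and monocytes, was at 2.93, 61.2 and 4.66 CPM in healthy blood and 49.9, 217 and 168 CPM in LLC blood and was not called (adjusted p 0.0942); healthy blood 2 lay above LLC blood 1. Ltf (lactoferrin) and Mpo (myeloperoxidase) were called higher, at 4.17 and 1.95 on the log2 scale, but the calls ended for Ltf on leaving out healthy blood 1, 2 or 3 or LLC blood 2 or 3 (3.09 to 5.66) and Mpo on leaving out healthy blood 1, 2 or 3 or LLC blood 2 or 3 (1.46 to 2.0). The Ltf values overlapped between the groups, and DESeq2 and limma-voom did not call it.

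The granule genes did not all rise. Cd177, a surface protein of neutrophils, fell from 409, 343 and 347 CPM in healthy blood to 273, 189 and 207 CPM in LLC blood (log2 change -0.74 ± 0.19 SE, adjusted p 0.0227), and Padi4 and Pglyrp1 were called lower too (-0.37 and -0.54). These 3 calls were not stable, with losses for Cd177 on leaving out healthy blood 1 or 3 or LLC blood 2 or 3 (-0.78 to -0.63), Padi4 on leaving out healthy blood 1 or LLC blood 2 or 3 (-0.35 to -0.30) and Pglyrp1 on leaving out healthy blood 1, 2 or 3, LLC blood 2 or 3 or LLC tumor 3 (-0.61 to -0.45). Pglyrp1 was no longer called with the span trend removed (log2 change -0.40, adjusted p 0.102). Csf3r, the receptor for the granulocyte factor G-CSF, stayed within 488 to 543 CPM over the 6 libraries and was not called (-0.12). The summed neutrophil markers overlapped between the groups. Most of that sum came from Csf3r, Cd177 and Mmp8, so it says little about less abundant members such as S100a8. The median of the neutrophil list moved between -0.34 (LLC blood 2 left out) and 1.45 (healthy blood 2 left out). The neutrophil list itself holds Mmp8, Ltf, Cd177, S100a8 and Csf3r, and its part in the granule values was not tested.

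The promoters of the granule genes that rose are shown because 6 of them hold the same short word. The motif TTGCNNAA, a form of the site bound by C/EBP factors, was searched on both strands in the 250 bases before the gene start (RefSeq, GRCm38.p6). It was found in 6 of the 12 called-higher granule genes with a promoter sequence in the table (of 16 called): Adam8, Anxa1, Fcnb, Lcn2, Ltf and Mmp8. Over all 9393 tested genes with a promoter, 9.12% hold it. The share among granule genes that were not called was not computed, so the 6 of 12 cannot be tied to the rise. A match describes the letters and is no measurement of binding. Capitals mark the match, and in Ltf and Fcnb it reads on the opposite strand. Lcn2 is shown from chr2:32387923-32387980, minus strand, Ltf from chr9:111019192-111019249, plus strand, Mmp8 from chr9:7558385-7558428, plus strand and Fcnb from chr2:28085081-28085128, minus strand.
Lcn2: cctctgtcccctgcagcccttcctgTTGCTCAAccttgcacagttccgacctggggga
Ltf: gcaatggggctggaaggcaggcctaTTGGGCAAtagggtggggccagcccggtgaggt
Mmp8: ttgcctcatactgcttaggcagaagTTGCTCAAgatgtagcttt
Fcnb: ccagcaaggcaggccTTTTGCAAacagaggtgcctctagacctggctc

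**Figure D3:**
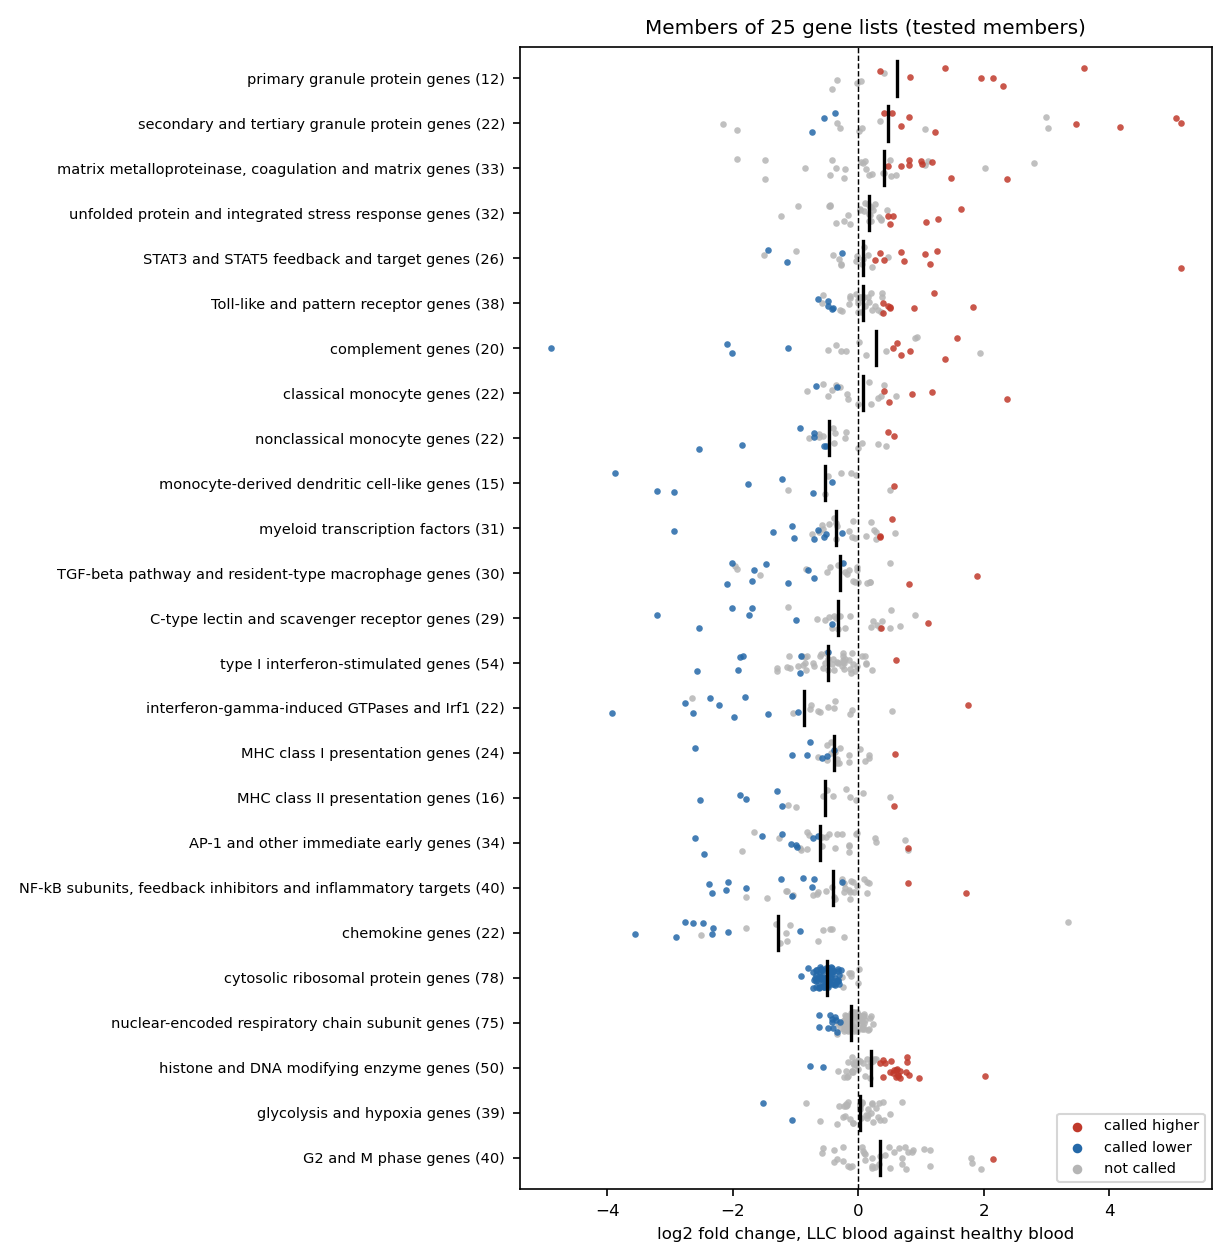
Log2 fold change of LLC blood over healthy blood for each tested member of 25 gene lists, coloured by call (higher, lower, not called); black bars mark list medians and the dashed line the median of all tested genes. Granule protein lists sit to the right, and the interferon-gamma, chemokine, immediate early and ribosomal protein lists to the left: list medians are 0.62 for primary granule genes, -0.87 for the interferon-gamma group, -1.28 for chemokines and -0.49 for ribosomal proteins.

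Genes of the IL-6 and STAT3 pathway that rose included receptor chains and a feedback inhibitor. Cytokines of this family bind a specific receptor chain, signal through the shared chain gp130 and Janus kinases to STAT3, and induce the inhibitor SOCS3. Of 26 listed genes of STAT3 and STAT5 feedback, 9 were called higher and 3 lower (46.2% in all). STAT feedback counts ranged over 6 to 10 higher (healthy blood 1, LLC tumor 1) and 1 to 7 lower (LLC blood 2, LLC tumor 1). Il6st (ENSMUSG00000021756), which encodes gp130, was at 119, 122 and 115 CPM in healthy blood and 225, 280.3 and 251 CPM in LLC blood (log2 change 1.06 ± 0.11 SE, adjusted p 0.000292). Il6ra (ENSMUSG00000027947), the IL-6 receptor chain, rose from 356, 321 and 269 CPM in healthy blood to 469, 522 and 554 CPM in LLC blood (log2 change 0.68 ± 0.12 SE, adjusted p 0.00443). Socs3 (ENSMUSG00000053113) was at 105, 107 and 83.7 CPM in healthy blood and 197, 289.6 and 236 CPM in LLC blood (log2 change 1.26 ± 0.16 SE, adjusted p 0.000779). For all 3 genes every LLC library lay above every healthy library, as in 27.5% of all tested genes. Il4ra, the receptor chain for IL-4 and IL-13 that also marks suppressor-type monocytes, rose from 132, 159 and 144 CPM in healthy blood to 284, 353 and 336 CPM in LLC blood (log2 change 1.13 ± 0.14 SE, adjusted p 0.000707). The kinase Jak3 was at 43.5, 62.9 and 50.5 CPM in healthy blood and 78.3, 98.2 and 88.3 CPM in LLC blood (log2 change 0.73 ± 0.14 SE, adjusted p 0.00618). Stat3 itself rose by 0.34 on the log2 scale, and that call ended on leaving out healthy blood 1, 2 or 3 or LLC blood 2 or 3 (log2 change 0.28 to 0.36) and with the span trend removed (log2 change 0.15, adjusted p 0.26). The inhibitors Socs1 and Cish went the other way. Socs1, which restrains interferon signalling, fell from 4.86, 6.76 and 4.84 CPM in healthy blood to 2.01, 2.28 and 1.88 CPM in LLC blood (log2 change -1.44 ± 0.30 SE, adjusted p 0.00875). Cish, induced by STAT5, was called lower (-1.13), but not on leaving out LLC blood 2 or 3 (log2 change -1.15 to -1.08). Of the 9 genes called higher, Socs3 alone had the word TTCNNNGAA (on either strand) in the 250 bases before its start, against 7.31% of all promoters. It lies 154 bases before the start, in capitals here (chr11:117969487-117969545, minus strand, GRCm38.p6).
Socs3: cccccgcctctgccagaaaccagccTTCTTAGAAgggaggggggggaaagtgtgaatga

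Receptors for growth factors changed in both directions. Of 24 listed receptors, 4 were called higher and 4 lower (33.3% in all). Growth factor receptor counts ranged over 2 to 4 higher (LLC blood 2, LLC blood 1) and 2 to 10 lower (LLC blood 2, LLC tumor 1). Csf2rb, the signalling chain shared by the receptors for GM-CSF, IL-3 and IL-5, was at 409.7, 452 and 412 CPM in healthy blood and 644, 692 and 689 CPM in LLC blood (log2 change 0.64 ± 0.11 SE, adjusted p 0.00285). Its paralog Csf2rb2, rose from 93.8, 109.6 and 95.6 CPM in healthy blood to 152, 183 and 175 CPM in LLC blood (log2 change 0.74 ± 0.14 SE, adjusted p 0.00452). Csf2ra, the specific chain of the GM-CSF receptor, was at 588, 481 and 520.2 CPM in healthy blood and 386, 417 and 383 CPM in LLC blood (log2 change -0.45 ± 0.09 SE, adjusted p 0.00788). The shared chain was thus higher and the specific chain lower in all LLC libraries. Flt1, a VEGF receptor of monocytes, fell from 29.9, 29.5 and 29.8 CPM in healthy blood to 10.04, 4.77 and 7.39 CPM in LLC blood (log2 change -2.04 ± 0.32 SE, adjusted p 0.00251). LLC blood values of Flt1 reached at most 10.04 CPM against at least 29.5 CPM in healthy blood. Flt3, the receptor of dendritic cell precursors, fell by 0.73 on the log2 scale, with the call lost on leaving out healthy blood 1 or LLC blood 2 or 3 (log2 change -0.66 to -0.60). Of 31 genes reported for suppressor-type myeloid cells, 5 were called higher (16.1%, against 14.0% of all tested genes) and none lower. Suppressor-type counts ranged over 1 to 9 higher (LLC blood 2, LLC tumor 1) and 0 to 6 lower (healthy blood 1, LLC tumor 1). These were Il4ra, Stat3, Ifitm1, Arg2 and the IL-1 decoy receptor Il1r2, which was at 4.5, 4.42 and 2.02 CPM in healthy blood and 6.5, 7.61 and 9.18 CPM in LLC blood (log2 change 1.09 ± 0.28 SE, adjusted p 0.021). Calls were lost for Ifitm1 on leaving out healthy blood 1 or 3 or LLC blood 2 or 3 (0.56 to 0.79), Arg2 on leaving out healthy blood 1 or 3 or LLC blood 2 or 3 (1.03 to 1.15) and Il1r2 on leaving out LLC blood 2 or 3 (0.94 to 1.12). Arg2, the mitochondrial arginase, was at 1.22 and Ifitm1 at 0.76 on the log2 scale.

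Of 33 tested genes for matrix proteins, matrix proteases and coagulation proteins, 9 were called higher (27.3%, against 14.0% of all tested genes) and none lower. The list's median was 0.40, and leaving out 1 library gave 7 (healthy blood 2 left out) to 11 (LLC tumor 1 left out) called higher. Vcan (ENSMUSG00000021614), the large matrix proteoglycan versican, rose from 158, 206 and 156 CPM in healthy blood to 613, 1059.9 and 1053 CPM in LLC blood (log2 change 2.36 ± 0.21 SE, adjusted p 0.000165). LLC blood 1 was lowest of its group and still far above the highest healthy library. F5, coagulation factor V, was at 57.1, 60.9 and 51.2 CPM in healthy blood and 96.5, 128 and 118 CPM in LLC blood (log2 change 0.99 ± 0.11 SE, adjusted p 0.000466). F7, factor VII, rose from 2.5, 3.5 and 2.88 CPM in healthy blood to 4.69, 6.92 and 6.66 CPM in LLC blood (log2 change 1.02 ± 0.19 SE, adjusted p 0.00451). With F10 above, 3 factors of the clotting cascade were thus higher in every LLC library. Mmp19, a metalloproteinase, was at 37.6, 43.9 and 24.2 CPM in healthy blood and 63.6, 121 and 115 CPM in LLC blood (log2 change 1.48 ± 0.27 SE, adjusted p 0.00491). Adam8, a membrane protease of granules, rose from 29.6, 23.5 and 25.6 CPM in healthy blood to 42.9, 46.8 and 49.8 CPM in LLC blood (log2 change 0.80 ± 0.14 SE, adjusted p 0.00336). Tgfbi, a matrix protein induced by TGF-beta, was at 1637, 1565 and 1312 CPM in healthy blood and 2463, 2819 and 2746 CPM in LLC blood (log2 change 0.80 ± 0.19 SE, adjusted p 0.0142), with the call lost on leaving out healthy blood 2 or 3 or LLC blood 2 or 3 (log2 change 0.71 to 0.78). Adam10 was called higher as well (0.46), lost on leaving out healthy blood 1, 2 or 3 or LLC blood 2 or 3 (log2 change 0.42 to 0.48) and with the span trend removed (log2 change 0.19, adjusted p 0.33). Fn1, fibronectin, and F13a1, the A subunit of clot-stabilising factor XIII, were not called (0.40 and 0.16).

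Of 30 integrin and adhesion genes, 7 were called higher and 3 lower (33.3% in all), and with the span trend removed 2 were higher and 3 lower. Integrin and adhesion counts ranged over 2 to 9 higher (healthy blood 2, LLC tumor 1) and 1 to 6 lower (healthy blood 3, LLC tumor 1). Itga1, a collagen-binding integrin chain, rose from 19.9, 16.5 and 18 CPM in healthy blood to 40.8, 62.9 and 64.4 CPM in LLC blood (log2 change 1.61 ± 0.17 SE, adjusted p 0.000295). Itgb3, a chain of the vitronectin receptor, was at 34.6, 24.6 and 30.6 CPM in healthy blood and 17.7, 13.1 and 14.7 CPM in LLC blood (log2 change -1.01 ± 0.16 SE, adjusted p 0.00285). Both separated the groups completely, in opposite directions. F11r, the junctional adhesion molecule JAM-A, is not a member of this list. It rose from 15.2, 21.6 and 12.6 CPM in healthy blood to 54.2, 137 and 120.1 CPM in LLC blood (log2 change 2.63 ± 0.36 SE, adjusted p 0.00123).

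Several Toll-like receptors were higher in LLC blood. Of 38 genes for Toll-like and other pattern receptors and their adaptors, 8 were called higher and 5 lower (34.2% in all); leaving out 1 library gave 5 (healthy blood 2 left out) to 12 (LLC tumor 1 left out) higher. Tlr5, the flagellin receptor, was at 6.07, 7.25 and 4.9 CPM in healthy blood and 19.9, 25 and 20.8 CPM in LLC blood (log2 change 1.82 ± 0.18 SE, adjusted p 0.000276). Tlr8, a receptor for RNA, rose from 72.5, 77.5 and 63.4 CPM in healthy blood to 141, 172 and 187 CPM in LLC blood (log2 change 1.21 ± 0.16 SE, adjusted p 0.000964). Tlr4, the receptor for lipopolysaccharide, was at 25.7, 33.5 and 27.1 CPM in healthy blood and 46.2, 57.4 and 58.2 CPM in LLC blood (log2 change 0.88 ± 0.13 SE, adjusted p 0.00208). No LLC value of these 3 receptors fell within the healthy range. Irak4, the kinase that Toll-like receptors signal through, rose from 85, 83.7 and 77.3 CPM in healthy blood to 112, 119.6 and 125 CPM in LLC blood (log2 change 0.51 ± 0.07 SE, adjusted p 0.00169). Ly86 encodes MD-1, which partners the receptor RP105, and was at 383, 409 and 399 CPM in healthy blood and 259, 258 and 256 CPM in LLC blood (log2 change -0.65 ± 0.14 SE, adjusted p 0.0089). Ly86 was thus lower in each LLC library. Tlr7 and Tlr13, receptors for RNA in endosomes, were not called (0.17 and 0.38). Their LLC values nevertheless lay above the healthy range in all 3 libraries.

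Of 20 complement genes, 6 were called higher and 4 lower (50% in all, against 23.6% of all tested genes). Complement counts ranged over 3 to 6 higher (healthy blood 3, LLC tumor 1) and 1 to 5 lower (LLC blood 2, LLC tumor 1). C3, the central complement protein, rose from 977, 1004 and 1002 CPM in healthy blood to 1686, 1595 and 1562 CPM in LLC blood (log2 change 0.67 ± 0.12 SE, adjusted p 0.0043). C1rl, a C1r-like protease, was at 15.3, 19 and 17.4 CPM in healthy blood and 43.9, 57.7 and 55.1 CPM in LLC blood (log2 change 1.57 ± 0.12 SE, adjusted p 6.78e-05). The genes that fell include the 3 chains of C1q, which starts the classical pathway and is made by macrophages. C1qc fell from 12.1, 8.66 and 3.92 CPM in healthy blood to 2.3, 1.8 and 2.08 CPM in LLC blood (log2 change -2.02 ± 0.44 SE, adjusted p 0.0102), lowest in healthy blood 3 within its group. C1qa and C1qb had log2 fold changes of -2.09 and -1.12, with the calls lost for C1qa on leaving out LLC blood 2 or 3 (-2.17 to -1.94) and C1qb on leaving out healthy blood 1 or 2, LLC blood 1, 2 or 3 or LLC tumor 2 (-1.16 to -0.97), and for C1qb with the span trend removed (log2 change -0.98, adjusted p 0.0831). The list's median was 0.28, and -0.10 over the genes whose counts were whole in every library. Properdin (Cfp) was called higher at 0.56, but not on leaving out healthy blood 1, 2 or 3 or LLC blood 1, 2 or 3 (log2 change 0.52 to 0.59).

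Chemoattractant receptors split as well: 3 of 28 were called higher and 5 lower (28.6% in all). Chemoattractant receptor counts ranged over 2 to 5 higher (healthy blood 1, LLC tumor 1) and 3 to 9 lower (LLC blood 2, LLC tumor 1). Ccr1, a receptor for inflammatory chemokines, was at 27.4, 47.8 and 34.8 CPM in healthy blood and 69.3, 108 and 84.1 CPM in LLC blood (log2 change 1.22 ± 0.24 SE, adjusted p 0.00611). P2ry2, which senses extracellular nucleotides, rose from 1.57, 1.72 and 2.08 CPM in healthy blood to 4.59, 4.98 and 5.07 CPM in LLC blood (log2 change 1.41 ± 0.15 SE, adjusted p 0.000342). Both were higher in all LLC libraries. Fpr2, a formyl peptide receptor, was at 53, 59.9 and 51.9 CPM in healthy blood and 27, 24.8 and 23.4 CPM in LLC blood (log2 change -1.16 ± 0.28 SE, adjusted p 0.0152), lost on leaving out LLC blood 2 or 3 (log2 change -1.15 to -1.11). The genes called lower also include S1pr1, Cxcr6 and Ccr7, which T cells carry (-3.41, -3.0 and -3.89). S1pr1, for lymphocyte exit from lymphoid organs, was at 2.57, 10.9 and 9.99 CPM in healthy blood and 0.669, 0.484 and 1.01 CPM in LLC blood. All 3 were lowest in healthy blood 1 within their group, as the T cell sum was. S1pr1 was highest in healthy blood 2, as the B cell sum was, whereas the T cell sum was highest in healthy blood 3. The part of lymphoid reads in these values was not tested. The Ccr7 call ended on leaving out healthy blood 2 or LLC blood 1, 2 or 3 (log2 change -4.32 to -1.88) and with limma-voom. Gpr35 was called higher (0.56), lost on leaving out healthy blood 1, 2 or 3 or LLC blood 2 or 3 (log2 change 0.49 to 0.61) and with the span trend removed (log2 change 0.45, adjusted p 0.0965). Among inhibitory and activating receptors of the immunoglobulin family, Cd300lf rose (log2 change 1.21 ± 0.17 SE, adjusted p 0.00144).

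Several genes typical of tissue macrophages and of lipid uptake fell. Of 30 genes of the TGF-beta pathway and of resident-type macrophages, 9 were called lower and 2 higher, with a median of -0.29 (36.7% in all). Resident-type macrophage counts ranged over 1 to 3 higher (healthy blood 2, LLC blood 1) and 4 to 11 lower (LLC blood 2, LLC tumor 1). Apoe (ENSMUSG00000002985), the lipid carrier apolipoprotein E, fell from 1113, 1041 and 923 CPM in healthy blood to 325, 361 and 305 CPM in LLC blood (log2 change -1.66 ± 0.26 SE, adjusted p 0.00229). Axl (ENSMUSG00000002602), a receptor kinase for apoptotic cells, was at 135, 119.7 and 131 CPM in healthy blood and 52.4, 38.5 and 51 CPM in LLC blood (log2 change -1.47 ± 0.13 SE, adjusted p 0.000143). In both, the lowest healthy library held more than 2 times the level of any LLC library. Mrc1 (ENSMUSG00000026712), the mannose receptor CD206, fell from 26.4, 16.7 and 22.5 CPM in healthy blood to 8.42, 6.29 and 6.13 CPM in LLC blood (log2 change -1.70 ± 0.26 SE, adjusted p 0.0023). Lpl (ENSMUSG00000015568), lipoprotein lipase, which frees fatty acids from circulating lipoproteins, had the largest decrease among called genes outside the marker lists that averaged at least 50 CPM, 212, 134 and 222 CPM in healthy blood and 22.4, 19 and 16.9 CPM in LLC blood (log2 change -3.32 ± 0.32 SE, adjusted p 0.000219). Hpgd, which degrades prostaglandins, was at 223, 192 and 239 CPM in healthy blood and 72.6, 47.7 and 60.1 CPM in LLC blood (log2 change -1.89 ± 0.16 SE, adjusted p 0.000124). All 5 separated the groups completely, which was a condition of the ranking that named Lpl. The lymphoid and dendritic cell sums given above also fell between the groups, and their part in these values was not tested. Slamf8, a receptor of macrophages, fell from 87.8, 95.6 and 82.3 CPM in healthy blood to 39.6, 22.1 and 28.1 CPM in LLC blood (log2 change -1.60 ± 0.29 SE, adjusted p 0.0046). Maf, a transcription factor of tissue macrophages, was at 59.1, 54.7 and 50.3 CPM in healthy blood and 31.7, 33.1 and 37.7 CPM in LLC blood (log2 change -0.70 ± 0.16 SE, adjusted p 0.0114), a call that ended on leaving out LLC blood 2 (log2 change -0.67). Gpnmb, a glycoprotein of activated macrophages, went the other way, from 3.5, 3.38 and 2.39 to 8.13, 11.7 and 14.4 CPM (log2 change 1.88 ± 0.27 SE, adjusted p 0.00171).

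**Figure D4:**
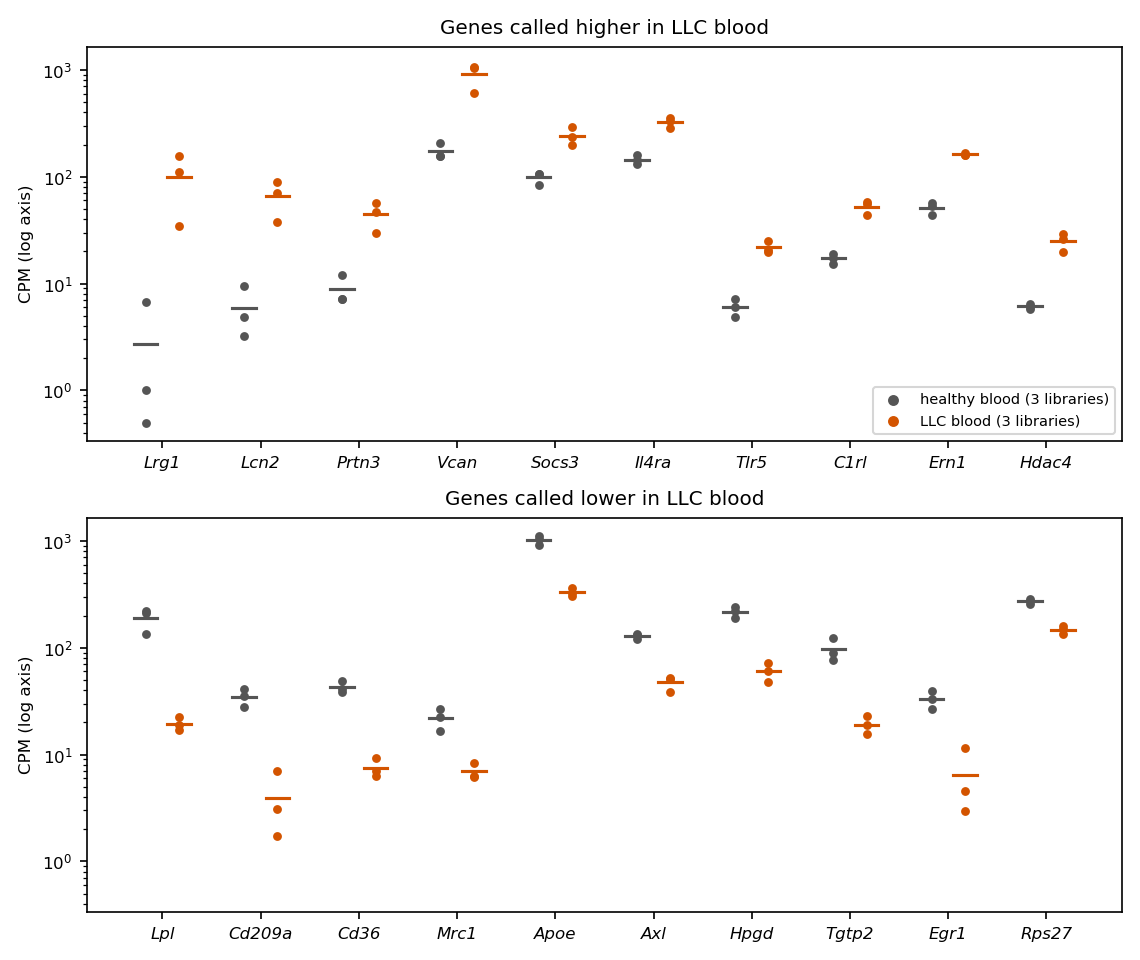
CPM (log axis) of 20 genes in the 3 healthy blood and 3 LLC blood libraries, with bars at the group means. The upper genes, Lrg1 to Hdac4, are higher and the lower genes, Lpl to Rps27, are lower in all 3 LLC libraries; LLC blood 1 lies nearest to healthy blood for Lrg1, Vcan and Egr1.

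Of 29 C-type lectin and scavenger receptor genes, 7 were called lower and 2 higher (31% in all). Lectin and scavenger receptor counts ranged over 1 to 7 higher (healthy blood 2, LLC tumor 1) and 5 to 14 lower (LLC blood 2, LLC tumor 1). Clec12a, an inhibitory lectin of myeloid cells, fell from 356, 377 and 439 CPM in healthy blood to 228, 178 and 189.9 CPM in LLC blood (log2 change -1.0 ± 0.20 SE, adjusted p 0.00658). Clec4b1 was called lower too (log2 change -2.01 ± 0.31 SE, adjusted p 0.00227). Treml2, a receptor of the TREM family, was at 25.3, 37.2 and 27.4 CPM in healthy blood and 62.2, 69.5 and 66.2 CPM in LLC blood (log2 change 1.11 ± 0.20 SE, adjusted p 0.00448), the largest rise of the list. Clec7a, the beta-glucan receptor dectin-1, was not called (-0.47). Among Fc receptors the single call was Fcgrt, the neonatal receptor that recycles IgG, at 82, 70.8 and 72.4 CPM in healthy blood and 42.1, 30.2 and 34.4 CPM in LLC blood (log2 change -1.11 ± 0.17 SE, adjusted p 0.00207). Eno1b fell from 145, 145 and 159.9 CPM in healthy blood to 25.9, 22.1 and 22.9 CPM in LLC blood (log2 change -2.69 ± 0.18 SE, adjusted p 2.93e-05); it is a copy of the enolase gene Eno1, with counts shared between genes in 8 of 9 libraries, and Eno1 was not called (0.35).

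Of 31 transcription factors of the myeloid lineage, 9 were called lower and 3 higher (38.7% in all, median -0.35). Transcription factor counts ranged over 0 to 4 higher (healthy blood 1, LLC tumor 1) and 4 to 17 lower (LLC blood 2, LLC tumor 1). With the span trend removed 0 were higher and 9 lower. Cebpa, a C/EBP factor of granulocyte and monocyte progenitors, was at 337, 215 and 194 CPM in healthy blood and 122, 113 and 128 CPM in LLC blood (log2 change -1.07 ± 0.28 SE, adjusted p 0.0233). The call ended on leaving out healthy blood 1 or LLC blood 1, 2 or 3 (log2 change -1.11 to -0.78), and healthy blood 1 held the highest value. Cebpb fell from 372, 322 and 358 CPM in healthy blood to 246, 260.4 and 241 CPM in LLC blood (log2 change -0.52 ± 0.10 SE, adjusted p 0.00612), with no overlap. Ets2, a factor of the ETS family, was at 16, 16.3 and 15 CPM in healthy blood and 6.69, 4.77 and 7.24 CPM in LLC blood (log2 change -1.36 ± 0.29 SE, adjusted p 0.00937). Gfi1, a repressor of the granulocyte lineage that lymphoid cells also express, went from 1.43, 1.84 and 3.0 to 0.0956, 0.208 and 0.435 CPM (log2 change -2.94 ± 0.54 SE, adjusted p 0.00469), lowest in healthy blood 1 within its group. Klf2 fell by 0.64 on the log2 scale and the repressor Zeb2 rose by 0.54; these calls ended for Klf2 on leaving out healthy blood 1, 2 or 3 or LLC blood 1, 2 or 3 (-0.73 to -0.52) and Zeb2 on leaving out healthy blood 1, 2 or 3 or LLC blood 1, 2 or 3 (0.48 to 0.57). With the span trend removed both ended as well (log2 change -0.43, adjusted p 0.176 for Klf2 and log2 change 0.24, adjusted p 0.367 for Zeb2). Irf5 and Klf13, the most abundant members not called, were at -0.34 and 0.12.

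Type I interferon-stimulated genes leaned lower in LLC blood, but few passed the test. Type I interferon, made by nearly all cells, induces antiviral genes, while interferon-gamma, made chiefly by NK and T cells, induces guanylate-binding proteins and related GTPases. Of 54 type I interferon-stimulated genes, 7 were called lower and 1 higher, with a median of -0.48; the 14.8% called were fewer than the 23.6% of all tested genes. All 3 LLC libraries lay below all 3 healthy libraries for 39 of the 54 genes, against 23.8% of all tested genes. The number called lower depended on single libraries and ran from 1 (healthy blood 2 left out) to 33 (LLC tumor 1 left out); the fit of the 6 blood libraries alone called 1 higher and 39 lower. Ifit3, an antiviral protein that binds viral RNA caps with its partners, fell from 159, 151 and 160.0 CPM in healthy blood to 63.9, 33.7 and 36.3 CPM in LLC blood (log2 change -1.85 ± 0.57 SE, adjusted p 0.0451). LLC blood 1 kept a higher Ifit3 level than the other LLC libraries, and the call ended on leaving out healthy blood 1, 2 or 3, LLC blood 1, 2 or 3 or LLC tumor 3 (log2 change -2.18 to -1.67). It ended with the span trend removed too (log2 change -1.70, adjusted p 0.0595). Ifi205, a sensor of the AIM2 family, was at 95.4, 143 and 133 CPM in healthy blood and 48, 25.1 and 27.4 CPM in LLC blood (log2 change -1.93 ± 0.52 SE, adjusted p 0.0253), lost on leaving out healthy blood 2 or 3 or LLC blood 2 or 3 (log2 change -1.87 to -1.75). Bst2, the antiviral tether tetherin, fell from 152, 142 and 140.1 CPM in healthy blood to 95.9, 64.5 and 72 CPM in LLC blood (log2 change -0.93 ± 0.28 SE, adjusted p 0.0386), lost on leaving out healthy blood 1, 2 or 3 or LLC blood 2 or 3 (log2 change -1.0 to -0.81) and with the span trend removed (log2 change -0.73, adjusted p 0.0628). Eif2ak2, the antiviral kinase PKR, went the other way, at 107, 99.8 and 96.5 CPM in healthy blood and 127, 164 and 176 CPM in LLC blood (log2 change 0.60 ± 0.12 SE, adjusted p 0.00729).

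Interferon-gamma induced genes were also called lower more often than higher. Of 22 genes, 9 were called lower and 1 higher, with a median of -0.87 (45.5% in all); the number lower ran from 6 (LLC blood 2 left out) to 17 (LLC tumor 1 left out). Tgtp2 (ENSMUSG00000078921), a T cell-specific GTPase by name that macrophages also induce, was at 77.6, 123 and 89 CPM in healthy blood and 23, 15.6 and 18.8 CPM in LLC blood (log2 change -2.37 ± 0.47 SE, adjusted p 0.00685). Gbp6, a guanylate-binding protein, fell from 16.5, 38.9 and 29.1 CPM in healthy blood to 5.9, 5.9 and 6.51 CPM in LLC blood (log2 change -2.23 ± 0.41 SE, adjusted p 0.0046). Its relative Gbp4 was at 12.7, 31.7 and 18.7 CPM in healthy blood and 4.37, 6.3 and 5.44 CPM in LLC blood (log2 change -1.99 ± 0.40 SE, adjusted p 0.00749). Within healthy blood all 3 were lowest in library 1, where the T cell and GIMAP sums were also lowest. They were highest in healthy blood 2, as the B cell sum was (361 CPM there). The T cell, GIMAP and NK sums were highest in healthy blood 3. The part of lymphoid reads in these values was not tested. Iigp1, an immunity-related GTPase, went from 3.39, 18.8 and 4.8 to 0.956, 0.138 and 0.724 CPM (log2 change -3.92 ± 0.78 SE, adjusted p 0.00718). The chemokine Cxcl10, which draws T cells, fell from 28.5, 31.5 and 29.98 CPM in healthy blood to 6.5, 3.53 and 3.82 CPM in LLC blood (log2 change -2.77 ± 0.67 SE, adjusted p 0.0164), even across the 3 healthy libraries; its call ended on leaving out LLC blood 2 or 3 (log2 change -2.64 to -2.61). Irf1, a transcription factor of the group, was not called (-0.65), although all 3 LLC libraries lay below the healthy range. Gvin1, a large interferon-inducible GTPase, rose from 217, 323 and 359.7 to 992, 1074 and 1022 CPM (log2 change 1.75 ± 0.20 SE, adjusted p 0.000513).

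Promoters of the interferon genes called lower are shown because most of those available hold the word of the interferon-stimulated response element. The letters GAAA, any 2 bases and GAAA again, on either strand in the 250 bases before the start (RefSeq, GRCm38.p6), were found in 7 of the 11 called-lower members of these lists that have a promoter in the table (of 16 called): Bst2, Cxcl10, Ifi205, Ifit3, Ifit3b, Socs1 and Tgtp2. Over all 9393 tested genes with a promoter, 3.37% hold it. The lists consist of interferon-related genes, and the share among their members that were not called was not computed. The 7 of 11 therefore cannot be tied to the fall of these genes. Capitals mark the match; in Ifit3 it reads on the opposite strand, and in Socs1 overlapping matches run together. Ifit3b, next to Ifit3, has the same letters in this window. The stretches are Cxcl10 from chr5:92349068-92349127, minus strand, Ifi205 from chr1:174031855-174031914, minus strand, Ifit3 from chr19:34583348-34583407, plus strand, Socs1 from chr16:10785585-10785644, minus strand and Tgtp2 from chr11:49064248-49064307, minus strand.
Cxcl10: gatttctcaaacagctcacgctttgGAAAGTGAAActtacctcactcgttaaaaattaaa
Ifi205: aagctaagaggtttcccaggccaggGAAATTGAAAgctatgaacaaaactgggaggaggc
Ifit3: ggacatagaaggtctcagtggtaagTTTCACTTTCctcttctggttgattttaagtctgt
Socs1: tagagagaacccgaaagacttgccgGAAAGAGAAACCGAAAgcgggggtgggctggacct
Tgtp2: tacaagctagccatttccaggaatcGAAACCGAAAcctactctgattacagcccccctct

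Of 24 MHC class I presentation genes, 7 were called lower and 1 higher (33.3% in all), with a median of -0.38. Leaving out 1 library gave 2 (healthy blood 3 left out) to 18 (LLC tumor 1 left out) called lower. H2-K1, a classical class I heavy chain, was at 1593, 1748 and 1845 CPM in healthy blood and 1105, 905 and 966 CPM in LLC blood (log2 change -0.83 ± 0.20 SE, adjusted p 0.0171). B2m, the light chain of every class I molecule, fell from 3318, 3769 and 3982 CPM in healthy blood to 2319, 2080.4 and 2208 CPM in LLC blood (log2 change -0.77 ± 0.24 SE, adjusted p 0.0478). H2-Q7, a nonclassical heavy chain, was at 65.3, 119.9 and 133 CPM in healthy blood and 20.5, 16.6 and 16.3 CPM in LLC blood (log2 change -2.61 ± 0.45 SE, adjusted p 0.00376), lowest in healthy blood 1 within its group. H2-Q4, of the same family, fell from 119, 149.6 and 135 CPM in healthy blood to 67.4, 60.8 and 70.2 CPM in LLC blood (log2 change -1.05 ± 0.21 SE, adjusted p 0.00718). Calls ended for H2-K1 on leaving out healthy blood 3 or LLC blood 2 or 3 (-0.81 to -0.76) and B2m on leaving out healthy blood 1, 2 or 3, LLC blood 1, 2 or 3 or LLC tumor 3 (-0.84 to -0.71), and for B2m with the span trend removed (log2 change -0.62, adjusted p 0.0839). Erap1, which trims peptides for class I, was at 63, 70.8 and 72.7 CPM in healthy blood and 89.9, 114 and 112 CPM in LLC blood (log2 change 0.59 ± 0.12 SE, adjusted p 0.00727) and was thus higher in all LLC libraries.

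Of 16 MHC class II genes, 5 were called lower and 1 higher (37.5% in all), although the sort excluded cells with surface class II. Class II counts ranged over 0 to 2 higher (healthy blood 3, healthy blood 2) and 1 to 8 lower (healthy blood 2, LLC tumor 1). H2-Aa, an alpha chain, fell from 116, 255 and 180.4 CPM in healthy blood to 73.7, 33.8 and 54.6 CPM in LLC blood (log2 change -1.80 ± 0.45 SE, adjusted p 0.0188). The beta chain H2-Ab1 was at 121, 221 and 154 CPM in healthy blood and 83.7, 50.2 and 72.6 CPM in LLC blood (log2 change -1.29 ± 0.33 SE, adjusted p 0.0195). A second beta chain, H2-Eb1, fell from 40.02, 109 and 55 CPM in healthy blood to 24.5, 12.6 and 19.7 CPM in LLC blood (log2 change -1.88 ± 0.56 SE, adjusted p 0.0391). All 3 were highest in healthy blood 2, the library with the high B cell sum, and all 3 healthy libraries exceeded all LLC libraries. The calls ended for H2-Aa on leaving out healthy blood 2 or 3 or LLC blood 2 or 3 (-1.81 to -1.53), H2-Ab1 on leaving out healthy blood 2 or 3 or LLC blood 2 or 3 (-1.34 to -1.08) and H2-Eb1 on leaving out healthy blood 2 or 3 or LLC blood 1, 2 or 3 (-2.08 to -1.41). The call of Cd74, given above, held with each library left out. Ifi30, a thiol reductase of antigen processing, went the other way at 534, 588 and 525 CPM in healthy blood and 807, 872 and 811 CPM in LLC blood (log2 change 0.57 ± 0.12 SE, adjusted p 0.0104), lost on leaving out healthy blood 3 (log2 change 0.54).

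Early response genes and inflammatory mediators were called lower more often than higher. Immediate early genes are switched on within minutes of a stimulus, including cell handling, and NF-kB targets follow. Of 34 AP-1 and other immediate early genes, 9 were called lower and 1 higher, with a median of -0.61 (29.4% in all). Immediate early gene counts ranged over 1 to 2 higher (healthy blood 1, LLC blood 1) and 5 to 16 lower (LLC blood 2, LLC tumor 1). Egr1 (ENSMUSG00000038418), a zinc finger factor induced by growth signals, was at 39.4, 26.9 and 32.8 CPM in healthy blood and 11.6, 2.97 and 4.59 CPM in LLC blood (log2 change -2.47 ± 0.44 SE, adjusted p 0.00401). Its relative Egr3 went from 0.572, 0.983 and 0.92 to 0.0956, 0.138 and 0.145 CPM (log2 change -2.61 ± 0.48 SE, adjusted p 0.00468). LLC blood 1 kept the highest Egr1 value of its group. Rhob, a small GTPase induced early, fell from 269, 193 and 169 CPM in healthy blood to 124, 76.2 and 77.6 CPM in LLC blood (log2 change -1.21 ± 0.24 SE, adjusted p 0.00619). Btg2, an antiproliferative gene, was at 305, 272 and 265 CPM in healthy blood and 205, 145 and 168 CPM in LLC blood (log2 change -0.73 ± 0.15 SE, adjusted p 0.00869). For both, every LLC library was below every healthy library, and Rhob was highest in healthy blood 1. Jund, an AP-1 subunit, fell from 241, 183 and 162 CPM in healthy blood to 138, 88.6 and 77.1 CPM in LLC blood (log2 change -0.98 ± 0.24 SE, adjusted p 0.0176), lost on leaving out healthy blood 1 or LLC blood 2 or 3 (log2 change -0.89 to -0.80). Fos, the defining member of AP-1, was at 1209, 777 and 815 CPM in healthy blood and 944, 377 and 330.4 CPM in LLC blood and was not called (-0.79, adjusted p 0.154). LLC blood 1 lay within the healthy range for Fos and the other LLC libraries far below it. Ier3 was the single member called higher (log2 change 0.79 ± 0.14 SE, adjusted p 0.00425).

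Of 40 NF-kB subunits, feedback inhibitors and targets, 11 were called lower and 2 higher (32.5% in all), with a median of -0.40. Leaving out 1 library gave 4 (healthy blood 3 left out) to 22 (LLC tumor 1 left out) called lower. Rel, the c-Rel subunit, rose from 19.1, 17.2 and 15.6 to 55.6, 54.9 and 62 CPM (log2 change 1.71 ± 0.24 SE, adjusted p 0.00155). The subunit Nfkb1 was not called (0.14). Nfkbie, an inhibitor of NF-kB that NF-kB induces, was at 65.6, 70.03 and 58.5 CPM in healthy blood and 45, 35.6 and 38.2 CPM in LLC blood (log2 change -0.74 ± 0.13 SE, adjusted p 0.00466). Rel was thus higher and a feedback inhibitor lower in all 3 LLC libraries. Chemokine genes had 9 of 22 tested members called lower and 0 higher, with a median of -1.28 (40.9% in all), and the number lower ran from 2 (LLC blood 2 left out) to 13 (LLC tumor 1 left out). Of the 22, 4 did not exceed the floor of 3 counts in any library of 1 blood group. With bounds in place of their changes the median was -1.14. Ccl3, a chemokine of activated macrophages that NK and T cells also make, fell from 16.6, 16.2 and 18.9 CPM in healthy blood to 8.32, 1.66 and 1.69 CPM in LLC blood (log2 change -2.33 ± 0.58 SE, adjusted p 0.0192), lost on leaving out healthy blood 3 or LLC blood 2 or 3 (log2 change -2.24 to -1.89). Ccl6, a chemokine of myeloid cells, was at 1159.5, 1157 and 1154 CPM in healthy blood and 723, 543 and 594 CPM in LLC blood (log2 change -0.93 ± 0.23 SE, adjusted p 0.0173), even within the healthy group, and lost on leaving out healthy blood 1 or 3 or LLC blood 2 or 3 (log2 change -0.93 to -0.83). Ccl5 and Xcl1, at -3.57 and -2.32 on the log2 scale, are products of NK and T cells and sit in the lymphoid group above. The chemokine list was not summarised without them. The Xcl1 call ended on leaving out LLC blood 2 (log2 change -2.03).

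Nearly all cytosolic ribosomal protein genes were lower. Of 78 cytosolic ribosomal protein genes, 71 were called lower and none higher (91% in all, against 23.6% of all tested genes), with a median of -0.49. When 1 library was left out, 46 (LLC blood 2 left out) to 76 (LLC tumor 1 left out) were lower. These are short genes, with a median span of 3169.5 bases. With the span trend removed the median was -0.31 and 48 were called lower. Rps28, of the small subunit, fell from 437, 451 and 413 CPM in healthy blood to 274, 259 and 267 CPM in LLC blood (log2 change -0.73 ± 0.09 SE, adjusted p 0.000606). Rpl37a, of the large subunit, was at 556, 574 and 583 CPM in healthy blood and 358, 308 and 329.7 CPM in LLC blood (log2 change -0.81 ± 0.12 SE, adjusted p 0.00193). Rps27 had the largest decrease of those averaging at least 10 CPM, 259, 287 and 276 CPM in healthy blood and 133, 161 and 149.7 CPM in LLC blood (log2 change -0.92 ± 0.16 SE, adjusted p 0.00395). In these 3 genes the groups did not overlap. Rplp0, a stalk protein, and Rpsa, also named as a laminin receptor, were the most abundant of the 7 not called (-0.15 and -0.25). Of 52 ribosome biogenesis and MYC target genes, 9 were called higher and 4 lower (25% in all, near the 23.6% of all tested genes). Ribosome biogenesis counts ranged over 4 to 11 higher (LLC blood 2, LLC tumor 1) and 1 to 12 lower (healthy blood 1, LLC tumor 1). Heatr1, a processing factor for ribosomal RNA, rose from 53.9, 65.6 and 57.1 CPM in healthy blood to 80.5, 105 and 104 CPM in LLC blood (log2 change 0.69 ± 0.12 SE, adjusted p 0.00317). Rrp12, which acts in export of ribosomal subunits, was at 18.2, 18.1 and 17.1 CPM in healthy blood and 28.1, 36 and 30.2 CPM in LLC blood (log2 change 0.80 ± 0.13 SE, adjusted p 0.00275). Polr1a, the large subunit of RNA polymerase I, rose from 25, 26.7 and 24.3 CPM in healthy blood to 44.4, 38.8 and 37.7 CPM in LLC blood (log2 change 0.64 ± 0.13 SE, adjusted p 0.00771). Polr1a was not called with the span trend removed (log2 change 0.41, adjusted p 0.0524). Npm1, nucleophosmin, was called lower (log2 change -0.40 ± 0.09 SE, adjusted p 0.0109).

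Few proliferation genes were called. Of 41 S phase genes 2 were called higher and 2 lower, and of 40 G2 and M phase genes 1 higher and 0 lower, against 23.6% of all tested genes called in either direction. The list medians were 0.31 and 0.34. S phase counts ranged over 0 to 6 higher (healthy blood 1, LLC tumor 1) and 0 to 5 lower (healthy blood 3, LLC tumor 1). G2 and M phase counts ranged over 0 to 5 higher (healthy blood 1, LLC blood 1) and 0 to 1 lower (healthy blood 1, LLC tumor 1). The G2 and M phase median ran from -0.015 (LLC blood 2 left out) to 1.11 (healthy blood 3 left out). The single G2 call was Ccnb2, cyclin B2, at 2.93, 7.06 and 14.6 CPM in healthy blood and 16.3, 52.8 and 42.3 CPM in LLC blood (log2 change 2.15 ± 0.61 SE, adjusted p 0.0335), lost on leaving out healthy blood 1 or 2 or LLC blood 2 or 3 (log2 change 1.76 to 2.04). The highest healthy value of Ccnb2 lay close to the lowest LLC value. Pcna and Mcm4 were not called (-0.21 and 0.55).

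Calls for genes of respiration and glycolysis depended on which libraries entered the fit. Of 75 nuclear-encoded respiratory chain subunits, 11 were called lower and 0 higher, with a median of -0.11; the number lower ran from 2 (healthy blood 3 left out) to 33 (LLC tumor 1 left out), and with the span trend removed the median was -0.0044 with 4 higher and 4 lower. Ndufa6, a complex I subunit, was at 99.2, 105 and 109 CPM in healthy blood and 77.4, 77.6 and 73.6 CPM in LLC blood (log2 change -0.48 ± 0.10 SE, adjusted p 0.00969). Of 39 glycolysis and hypoxia genes, 2 were called lower and 0 higher (5.13%, against 23.6% of all tested genes), but leaving out LLC tumor 1 gave 9 higher and 7 lower, and the 6 blood libraries alone 10 higher and 5 lower. The 2 genes called lower were the glucose transporter Slc2a3 (log2 change -1.53 ± 0.32 SE, adjusted p 0.00897) and the stress gene Ddit4 (log2 change -1.06 ± 0.25 SE, adjusted p 0.0155), the second lost on leaving out LLC blood 2 (log2 change -0.85). Pkm, pyruvate kinase, was not called (0.39), although all 3 LLC values lay above the healthy ones. Of 19 pentose phosphate and glycogen genes, 6 were higher and 1 lower (36.8% in all). With the span trend removed they were 3 and 2, and 3 (healthy blood 1 left out) to 8 (LLC tumor 1 left out) were higher when 1 library was left out. Pygb, a glycogen phosphorylase, rose from 42.9, 42.2 and 44.6 CPM in healthy blood to 60.7, 64.8 and 58.3 CPM in LLC blood (log2 change 0.48 ± 0.08 SE, adjusted p 0.00374). Of 35 cholesterol genes, 4 were higher and 1 lower (14.3% in all, against 23.6% of all tested genes). Cholesterol gene counts ranged over 1 to 5 higher (healthy blood 2, LLC tumor 1) and 0 to 11 lower (healthy blood 2, LLC tumor 1). Stard4, a cholesterol transfer protein, was at 11.1, 11.3 and 11.7 CPM in healthy blood and 18, 20.6 and 22.6 CPM in LLC blood (log2 change 0.82 ± 0.10 SE, adjusted p 0.000739). Of 34 fatty acid oxidation and PPAR genes, 3 were higher and 2 lower (14.7% in all, against 23.6% of all tested genes). Fatty acid gene counts ranged over 0 to 5 higher (healthy blood 2, LLC tumor 1) and 1 to 4 lower (healthy blood 3, LLC tumor 1). Those that fell were Cd36, given above, and the fatty acid binding protein Fabp4 (-1.85), the second lost on leaving out healthy blood 3 or LLC blood 2 or 3 (log2 change -1.81 to -1.50).

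Ern1, a stress sensor of the endoplasmic reticulum, rose. When unfolded proteins build up there, the sensors IRE1, ATF6 and PERK start a program that raises chaperones and degradation. Of 32 genes of this response, 6 were called higher and 0 lower (18.8%, against 14.0% of all tested genes called higher). Stress response counts ranged over 4 to 7 higher (healthy blood 3, healthy blood 2) and 0 to 6 lower (healthy blood 1, LLC tumor 1). Ern1 (ENSMUSG00000020715), which encodes IRE1, rose from 52.9, 56.6 and 44 CPM in healthy blood to 166, 159 and 160.2 CPM in LLC blood (log2 change 1.63 ± 0.10 SE, adjusted p 2.30e-05), with no overlap. Sel1l, of the pathway that extracts proteins for degradation, was at 117, 125 and 113 CPM in healthy blood and 156, 189 and 183 CPM in LLC blood (log2 change 0.55 ± 0.09 SE, adjusted p 0.00285). Atf6 rose from 204, 193 and 195 CPM in healthy blood to 266, 293 and 298 CPM in LLC blood (log2 change 0.51 ± 0.08 SE, adjusted p 0.00239), a call that ended with the span trend removed (log2 change 0.20, adjusted p 0.11). Slc7a11, the cystine transporter, was called higher (log2 change 1.07 ± 0.16 SE, adjusted p 0.00201). The chaperones Hsp90b1 and Pdia3 were not called (0.20 and 0.17). Of 28 heat shock protein and co-chaperone genes, 2 were called lower and 0 higher (7.14% in all, against 23.6% of all tested genes). When 1 library was left out, 1 (healthy blood 1 left out) to 11 (LLC tumor 1 left out) were lower. Hspe1, the mitochondrial co-chaperonin, was at 53.2, 57 and 55.1 CPM in healthy blood and 43, 38.7 and 40.3 CPM in LLC blood (log2 change -0.47 ± 0.07 SE, adjusted p 0.00246).

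Of 39 proteasome subunits, 3 were called higher and none lower (7.69% in all), and of 56 lysosomal genes 7 were higher and 2 lower (16.1%), against 23.6% of all tested genes. On leaving out LLC tumor 1, however, 12 proteasome genes were lower, and the 6 blood libraries alone gave 5 higher and 6 lower. Lysosomal counts ranged over 3 to 11 higher (healthy blood 2, LLC tumor 1) and 0 to 12 lower (healthy blood 3, LLC tumor 1). Psmd1, a base subunit of the regulatory particle, rose from 60.1, 68.6 and 67.6 CPM in healthy blood to 85.1, 110.0 and 102 CPM in LLC blood (log2 change 0.57 ± 0.10 SE, adjusted p 0.00349). Atp6v1a, a proton pump subunit, was at 166, 179 and 176 CPM in healthy blood and 223, 299 and 294 CPM in LLC blood (log2 change 0.62 ± 0.13 SE, adjusted p 0.00828). Ctsl, cathepsin L, rose from 37.9, 38.7 and 39.6 CPM in healthy blood to 51.4, 77.9 and 70.8 CPM in LLC blood (log2 change 0.76 ± 0.14 SE, adjusted p 0.00483). All 3 genes were higher in every LLC library. Of 26 iron and heme genes, 7 were higher and 1 lower (30.8% in all, against 23.6% of all tested genes). Iron and heme counts ranged over 4 to 7 higher (healthy blood 1, LLC tumor 1) and 0 to 6 lower (healthy blood 1, LLC tumor 1). Beside Lcn2, Mt1, a metal-binding metallothionein, rose from 3.72, 2.64 and 2.51 to 6.02, 9.89 and 7.92 CPM (log2 change 1.42 ± 0.26 SE, adjusted p 0.005). Slc39a14, a zinc and iron importer, rose from 4.72, 3.99 and 3.74 to 5.36, 10.2 and 8.02 CPM (log2 change 0.91 ± 0.20 SE, adjusted p 0.0099). The ferritin chains Fth1 and Ftl1 were not called (-0.21 and -0.20). Of 29 genes of the NADPH oxidase and the NRF2 antioxidant program, 5 were higher and 2 lower (24.1% in all, near the 23.6% of all tested genes). Oxidase and antioxidant counts ranged over 3 to 6 higher (healthy blood 1, LLC tumor 1) and 1 to 9 lower (healthy blood 1, LLC tumor 1). Txnrd1, thioredoxin reductase, was at 53, 53.6 and 49.7 CPM in healthy blood and 65, 80.7 and 85.7 CPM in LLC blood (log2 change 0.54 ± 0.10 SE, adjusted p 0.0047). Gpx4, which reduces lipid peroxides, fell from 180.1, 187 and 207 CPM in healthy blood to 138, 117 and 126 CPM in LLC blood (log2 change -0.62 ± 0.12 SE, adjusted p 0.00588). Cybb, the catalytic subunit of the oxidase, was at 2309, 2300.0 and 2318 CPM in healthy blood and 2302, 2347 and 2427 CPM in LLC blood and was not called (adjusted p 0.994).

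Many genes for chromatin enzymes were higher, and they are long genes, with a median span of 48873.5 bases. Of 50 histone and DNA modifying enzymes, 21 were called higher and 2 lower (46% in all, against 23.6% of all tested genes), with a median of 0.20. With the span trend removed the median was 0.02, with 15 higher and 4 lower. Chromatin enzyme counts ranged over 14 to 22 higher (healthy blood 2, LLC tumor 1) and 1 to 6 lower (healthy blood 1, LLC tumor 1). Hdac4, a class II histone deacetylase, was at 6.5, 5.84 and 6.01 CPM in healthy blood and 19.8, 29.4 and 26.4 CPM in LLC blood (log2 change 2.02 ± 0.16 SE, adjusted p 7.17e-05). With the trend removed Hdac4 stayed called (log2 change 1.69, adjusted p 0.000189). Tet2, which oxidises methylated cytosine, rose from 105, 99.2 and 108 CPM in healthy blood to 165, 199.6 and 182 CPM in LLC blood (log2 change 0.78 ± 0.08 SE, adjusted p 0.000278). Kmt2c, a methyltransferase of lysine 4 of histone H3, was at 94.2, 87.9 and 82.1 CPM in healthy blood and 153, 179 and 195 CPM in LLC blood (log2 change 0.97 ± 0.10 SE, adjusted p 0.000277). The acetyltransferase Ep300 rose from 187, 178 and 156 CPM in healthy blood to 262, 315 and 329 CPM in LLC blood (log2 change 0.77 ± 0.10 SE, adjusted p 0.00113). In each the groups did not overlap, and the calls held with the trend removed (log2 change 0.53, adjusted p 0.00154 for Tet2, log2 change 0.65, adjusted p 0.00176 for Kmt2c and log2 change 0.55, adjusted p 0.00487 for Ep300). Hdac7 was called lower (log2 change -0.56 ± 0.10 SE, adjusted p 0.00357).

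Several of the largest increases were outside the lists. These genes were picked among called genes whose groups did not overlap. Cbl, a ubiquitin ligase that turns off receptor kinases, was at 35.6, 39.1 and 30.1 CPM in healthy blood and 261, 323 and 313 CPM in LLC blood (log2 change 3.07 ± 0.12 SE, adjusted p 6.28e-06). Lnpep, a membrane aminopeptidase, rose from 48.6, 49.3 and 41.5 CPM in healthy blood to 196, 269 and 278 CPM in LLC blood (log2 change 2.39 ± 0.15 SE, adjusted p 2.30e-05). Ago2, the slicer of the small RNA pathway, was at 30.6, 31.4 and 25.8 CPM in healthy blood and 111, 144 and 139.6 CPM in LLC blood (log2 change 2.15 ± 0.12 SE, adjusted p 1.46e-05). Glg1, a Golgi glycoprotein, rose from 42.9, 44.9 and 37.1 CPM in healthy blood to 154, 188 and 191 CPM in LLC blood (log2 change 2.07 ± 0.10 SE, adjusted p 1.46e-05). The lowest LLC library was more than 3 times as high as the highest healthy library in each of these 4 genes. Atp11a, a phospholipid flippase, was at 52, 69.6 and 48.1 CPM in healthy blood and 188, 361 and 330.3 CPM in LLC blood (log2 change 2.35 ± 0.28 SE, adjusted p 0.000699). Long genes are among these: Cbl and Ago2 span 91284 and 83323 bases and Atp11a 111713 bases. In their bins of span 31.4% (Cbl and Ago2) and 30.1% (Atp11a) of genes were called higher. The values of this paragraph are not corrected for the span trend. The entries 9930111J21Rik1, Ddi2, Etohi1 and Gm14548, at 3.25, 2.49, 2.0 and 1.83 on the log2 scale, had counts that were whole in none of the 9 libraries and are uncertain.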

How the data were processed

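Members and gene lists were chosen with earlier results of these data known; alternatives with the span trend, whole counts and reads recovered from CPM were added after seeing the data. The authors deposited a table of estimated counts per gene and a table of CPM, with mm10, STAR 2.6.1d, Salmon 1.9.0, cutadapt 3.4 and edgeR among the names in the submitters' processing notes; which tool made which table, and the strand setting, are not given in the sources used here. In a library 8.56 to 9.73% of all 24411 deposited entries, those at 0 included, were not whole (beyond 1e-06). The share among counts above 0 is larger. All counts were rounded before fitting. Every deposited CPM value came out as a whole number of reads (within 0.02 reads), and a count test on those reads called 2584 genes.

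Libraries were grouped by the labels. All 9 libraries were fitted in edgeR 4.0.16 (R 4.3.3; filterByExpr, TMM factors, quasi-likelihood test), the tumor libraries adding to the estimate of spread, with Benjamini-Hochberg adjustment over all tested genes and a threshold of 0.05. SE is of the log2 fold change. The script was tested on simulated data. With a span trend built into those data, this fit made many more false calls than the fit with the trend removed, which recovered fewer of the changed genes. The built-in trend was of the kind that the second fit removes, so the outcome does not show where the trend in the libraries comes from. Printed CPM are deposited counts over the library total. A floor of 3 counts per library lies at 0.145 to 0.287 CPM in the 6 blood libraries and covers counting error only. Alternatives were DESeq2 1.42.0, limma 3.58.1 (voom with quality weights), other scalings, filters and thresholds, the 6 blood libraries alone, a replicate block and leaving out each library. Lists are described by counts and medians without a test of the list. Named were the 12 genes with the largest change each way among called genes without overlap, averaging 50 CPM or more and outside the marker lists; in each list up to 6 called members averaging 10 CPM or more and up to 2 not called, and any member of lists up to 40; genes listed at 0 in 1 group with at least 20 CPM in the other; and the sorting markers. Gene spans and promoters were matched by symbol to RefSeq. A few genes that this rule names are not reported here.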

Additional observations from a re-analysis of the deposited data

How the results depend on the processing

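Against 2917 called genes (1732 higher, 1185 lower), the 6 blood libraries alone gave 4889 (2411 lower), a replicate block 4820 (2386 lower) and limma-voom with quality weights 5884 (3003 higher, 2881 lower). An adjusted p under 0.01 left 1386 genes (967 higher, 419 lower, 490 of them changed at least 2-fold), and a change of at least 2-fold left 769 (400 higher, 369 lower). Leaving out 1 library gave 1494 to 5064 called genes, 1019 to 2181 higher, 467 to 2883 lower and 504 to 1006 changed at least 2-fold; the lowest total came without LLC blood 2 and the highest without LLC tumor 1. DESeq2 called 3457, upper-quartile factors 3217 (1490 higher, 1727 lower), library totals alone 2789, no abundance filter 2665, and genes with whole counts in every library 2159 of 9196. The cause of these differences was not tested. Same-numbered healthy and LLC blood libraries had correlations of their deviations of 0.30, 0.16 and 0.066, and differently numbered ones of -0.31 to 0.19. With 3 libraries a side these values cannot tell whether equal numbers share a batch. The labels give no pairing, and the replicate block is given as a count only. The depth of 10457492 counts in LLC blood 1 limits what can be tested to genes above a few counts.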

Other observations

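Of 40 tested BCL2 family and TNF superfamily genes, 9 were called lower and 3 higher, with a median of -0.16, against 14.0% higher and 9.61% lower over all tested genes. With 1 library left out (named in brackets for the low and the high end) the counts were 0 to 5 higher (healthy blood 2, LLC tumor 1) and 3 to 19 lower (healthy blood 3, LLC tumor 1). Bcl2a1b, an antiapoptotic member of the A1 cluster, was at 16.3, 26.6 and 27.5 CPM in healthy blood and 6.29, 4.68 and 5.69 CPM in LLC blood (log2 change -2.11 ± 0.40 SE, adjusted p 0.0054). Tnfsf13b, the B cell survival factor BAFF, fell from 13.7, 12.1 and 12.3 CPM in healthy blood to 8.89, 5.88 and 7.34 CPM in LLC blood (log2 change -0.82 ± 0.21 SE, adjusted p 0.0238). Tnfrsf13b, a receptor of that factor, was at 6.79, 5.28 and 5.52 CPM in healthy blood and 9.28, 10.9 and 10.1 CPM in LLC blood (log2 change 0.76 ± 0.17 SE, adjusted p 0.0133). Bbc3, the proapoptotic PUMA, had a log2 fold change of -1.02. Of 22 prostaglandin and leukotriene genes, 4 were lower and 1 higher (22.7% in all, near the 23.6% of all tested genes). Their counts ranged over 1 to 2 higher (healthy blood 1, LLC tumor 1) and 3 to 6 lower (healthy blood 2, LLC tumor 1). Alox5, the lipoxygenase that starts leukotriene synthesis, fell from 19.9, 15.9 and 16.9 CPM in healthy blood to 12.8, 8.3 and 8.4 CPM in LLC blood (log2 change -0.88 ± 0.27 SE, adjusted p 0.0411). Lta4h, which makes leukotriene B4, was at 71.3, 84.8 and 81.8 CPM in healthy blood and 112, 126 and 133 CPM in LLC blood (log2 change 0.61 ± 0.09 SE, adjusted p 0.00163). Of these calls, losses came for Tnfsf13b on leaving out healthy blood 1, 2 or 3 or LLC blood 2 or 3 (-0.90 to -0.67), Tnfrsf13b on leaving out healthy blood 2 or 3 or LLC blood 2 or 3 (0.63 to 0.75), Bbc3 on leaving out healthy blood 1 or 3 or LLC blood 2 or 3 (-1.0 to -0.92) and Alox5 on leaving out healthy blood 1, 2 or 3 or LLC blood 2 or 3 (-1.0 to -0.76). Bcl2a1b has near-identical paralogs and counts that were whole in none of the 9 libraries, which makes it less certain.

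Of 21 glucocorticoid target genes, 3 were called higher and 4 lower (33.3% in all, against 23.6% of all tested genes). Txnip, an inhibitor of thioredoxin, fell from 1298, 1029 and 1014 CPM in healthy blood to 706, 567 and 716 CPM in LLC blood (log2 change -0.77 ± 0.24 SE, adjusted p 0.0435). Pik3ip1, an inhibitor of PI3 kinase, was at 5.15, 6.88 and 4.29 CPM in healthy blood and 2.87, 2.49 and 1.98 CPM in LLC blood (log2 change -1.19 ± 0.33 SE, adjusted p 0.0295). Tsc22d3, which encodes the glucocorticoid-induced leucine zipper, was not called (-0.71). Anxa1, annexin A1, rose from 528, 516 and 463 CPM in healthy blood to 684, 785 and 757 CPM in LLC blood (log2 change 0.54 ± 0.11 SE, adjusted p 0.00669). Of 16 circadian clock genes, 2 were higher and 0 lower (12.5% in all): Clock at 0.58 and Nfil3 at 0.45 on the log2 scale. Of 20 immune checkpoint and costimulatory genes, 2 were higher and 1 lower (15% in all, against 23.6% of all tested genes). Checkpoint counts ranged over 1 to 3 higher (healthy blood 1, LLC tumor 1) and 0 to 4 lower (healthy blood 1, LLC tumor 1). Siglece, an inhibitory sialic acid receptor, was at 28.1, 32.9 and 25 CPM in healthy blood and 49.6, 56.7 and 50.5 CPM in LLC blood (log2 change 0.84 ± 0.11 SE, adjusted p 0.00108). Cd200r1, the inhibitory receptor for CD200, rose from 8.23, 9.87 and 9.15 CPM in healthy blood to 12.4, 19.2 and 16.9 CPM in LLC blood (log2 change 0.81 ± 0.18 SE, adjusted p 0.0125). Of 19 progenitor genes, 4 were higher and 4 lower (42.1% in all, median 0.05), and of 10 S100 genes 1 and 0 (10%, median 0.37). Of 21 mRNA decay and dual specificity phosphatase genes, 0 were higher and 5 lower (23.8%, median -0.18). Progenitor counts ranged over 2 to 4 higher (healthy blood 1, LLC tumor 1) and 3 to 7 lower (healthy blood 1, LLC tumor 1), S100 counts over 0 to 3 higher (healthy blood 3, healthy blood 2) and 0 lower and the last over 0 to 1 higher (healthy blood 1, LLC blood 1) and 2 to 9 lower (LLC blood 3, LLC tumor 1). Of these calls, losses came for Txnip on leaving out healthy blood 1, 2 or 3 or LLC blood 1, 2 or 3 (-0.88 to -0.65), Pik3ip1 on leaving out healthy blood 1 or 2 or LLC blood 2 or 3 (-1.22 to -1.04) and Cd200r1 on leaving out healthy blood 1 or LLC blood 2 or 3 (0.68 to 0.78), and for Txnip with the span trend removed (log2 change -0.59, adjusted p 0.0867). Glucocorticoid counts ranged over 2 to 3 higher (LLC blood 2, healthy blood 1) and 0 to 6 lower (LLC blood 2, LLC tumor 1). The counts of Txnip and Cd200r1 were whole in none of the 9 libraries.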
